A study of Mus musculus with 6 samples.

Results

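The mitochondrial genome of the mouse holds 13 protein-coding genes, each counted here as an mRNA, and genes for 2 rRNAs and 22 tRNAs. Their counts were read from RNA sequencing of RAW264.7 cells, a mouse macrophage line. Rows were chosen by symbol. The 15 rows whose symbol starts with mt- hold the mRNAs and rRNAs. The 22 tRNA rows carry RefSeq symbols such as TrnM and were matched to the mitochondrial chromosome of a RefSeq gene table. Together they are 37 of 40773 rows in the count table. One group of 3 cultures had lipopolysaccharide (LPS, from the outer membrane of Gram-negative bacteria, which is sensed through Toll-like receptor 4) at 100 ng/mL for 24 h. The other group of 3 had the same LPS dose with the antibody 3A2, which neutralizes the membrane protease MMP14, at 50 µg/mL. All 6 cultures therefore had LPS, the labels give the genotype of the line as plain, and cells without LPS or with a control antibody were not analysed here.

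Mitochondrial DNA is a small circle that is copied into long RNAs from both strands by a dedicated polymerase. tRNAs punctuate most of the genes, and cutting them out releases the mRNAs and rRNAs, which then gain short poly(A) tails. The mRNAs encode core subunits of respiratory complexes I, III and IV and of ATP synthase, which are assembled with many nuclear-encoded subunits, and the rRNAs form the mitochondrial ribosome that translates them. In macrophages LPS is known to shift energy use from respiration towards glycolysis, and mitochondria become a source of signals for inflammation.

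A few stretches of these transcripts bear on how their reads are counted, and they are shown from GENCODE release M21 of the mouse assembly GRCm38. The first set holds the places where genes overlap, with the shared bases in capitals. The mt-Atp8 and mt-Atp6 frames share 43 bases on one strand, which is 21.1% of mt-Atp8, and mt-Nd4l and mt-Nd4 share 7. The ends of mt-Nd5 and mt-Nd6 share 14 bases on opposite strands, printed on the mt-Nd5 strand.
mt-Atp8/mt-Atp6 overlap: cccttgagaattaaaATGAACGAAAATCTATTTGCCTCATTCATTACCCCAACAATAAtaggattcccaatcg
mt-Nd4l/mt-Nd4 overlap: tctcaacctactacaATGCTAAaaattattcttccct
mt-Nd5/mt-Nd6 overlap: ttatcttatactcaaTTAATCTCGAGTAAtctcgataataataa
Reads within bases shared on one strand cannot be assigned to one gene of a pair. Those on the mt-Nd5 and mt-Nd6 overlap can be told apart only where the counting used strand. The labels do not say how either kind was treated. Nuclear copies of mitochondrial DNA raise a like uncertainty. In the same annotation 9 predicted nuclear genes, taken from a set list, matched 7 of the mitochondrial genes at 95.9% to 100% identity. Of these predicted genes, 5 had no difference over the aligned bases. Some matched only a part of the gene, such as 876 of the 1378 bases of mt-Nd4. Counts of mt-Co1, mt-Co2, mt-Co3, mt-Atp6, mt-Nd3, mt-Nd4 and mt-Nd4l are therefore uncertain, by an amount that was not measured. The count table has 0 rows for those predicted genes, and other nuclear copies were not searched for.

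The second set is the last 20 bases of the 3 mRNAs whose annotated gene ends inside a stop codon, with that base in capitals, and of mt-Co1, which ends in a whole one. The poly(A) tail supplies the missing bases of such stops in the cell. The remaining 10 mRNAs end in a complete stop codon, mt-Co1 among them.
mt-Nd4 end: aattacaggcctgacaataT
mt-Cytb end: aatactaaaattatatccaT
mt-Co3 end: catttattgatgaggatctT
mt-Co1 end: cctatgtaaaagtaaaaTAA

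Libraries held 6060732 to 7432553 counts, with 14998 to 15309 genes counted in each, and labels state biological triplicates. All pairs of libraries differed by more than sampling noise (chi-square per degree of freedom 3.33 to 22). The 10 macrophage markers summed to 7196, 7309 and 7290.2 CPM (counts scaled to 1e6 per library) in LPS replicates 1 to 3 and to 6646, 6584 and 6191 CPM with 3A2, so the groups did not overlap. Of 9 tested, 8 lay below 0 and 3 were lower at an unadjusted p under 0.05, where 3.09% of all genes were. For 3 of 9 all libraries with 3A2 lay below all LPS libraries, where 6.46% of all genes did so. Lyz2, the most abundant, held most of the sum, with a mean of 4337 CPM of the scaled total with LPS and 3780 CPM with 3A2. It stood at 0.871-fold (95% interval 0.805 to 0.943; edgeR adjusted p = 0.719). The part of this marker shift in the mitochondrial values was not tested. Marker lists of lymphocytes, of neutrophils, mast and dendritic cells, of fibroblasts and adipocytes and of epithelium and endothelium each summed to at most 7.74 CPM. Mmp14 mRNA had 0 to 6 counts in a library, and the antibody acts on the protein. LPS plus 3A2 replicate 3 stood apart in its make-up, and fold changes without it are given beside each mRNA and rRNA.

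As a class, mitochondrial mRNAs took 2.35%, 2.24% and 2.22% of all counts in LPS replicates 1 to 3, and 2.54%, 2.18% and 3.06% with 3A2. Wilson 95% intervals, which cover counting error only, were 2.34% to 2.36%, 2.23% to 2.26% and 2.21% to 2.23% with LPS. With 3A2 they were 2.53% to 2.56%, 2.17% to 2.20% and 3.04% to 3.07%. The group means were 2.27% ± 0.0705 with LPS and 2.60% ± 0.439 with 3A2 (SD, n = 3), so the groups overlapped. The log2 ratio of the means was 0.19, and 0.057 without LPS plus 3A2 replicate 3. Replicate 2 with 3A2 was the lowest of the 6 libraries and replicate 3 the highest. In bulk RNA, more or fewer mitochondria per cell and more or less RNA in each cannot be told apart, and a share does not give the number of cells.

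The 2 rRNAs varied far more between libraries than the mRNAs. They took 5.13%, 3.72% and 2.64% of counts in LPS replicates 1 to 3, and 4.90%, 3.01% and 6.89% with 3A2. Their Wilson 95% intervals were 5.11% to 5.14%, 3.70% to 3.73% and 2.63% to 2.65% with LPS, and 4.88% to 4.91%, 3.00% to 3.03% and 6.87% to 6.91% with 3A2. The highest library was 2.61 times the lowest for rRNA and 1.40 times for mRNA. Group means were 3.83% ± 1.25 and 4.93% ± 1.94 (SD, n = 3), and both groups held high and low libraries. The log2 ratio of these means was 0.37, and 0.047 without LPS plus 3A2 replicate 3. The ratio of rRNA to mRNA counts was 2.18, 1.66 and 1.19 in the LPS-only cultures and 1.93, 1.38 and 2.25 with 3A2, so rRNA and mRNA did not keep a fixed ratio within either group. Ribosomal RNA was depleted before sequencing, per the labels' protocols, so these counts are what was left and not a cellular level. The part of that step in the spread was not tested.

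**Figure D1:**
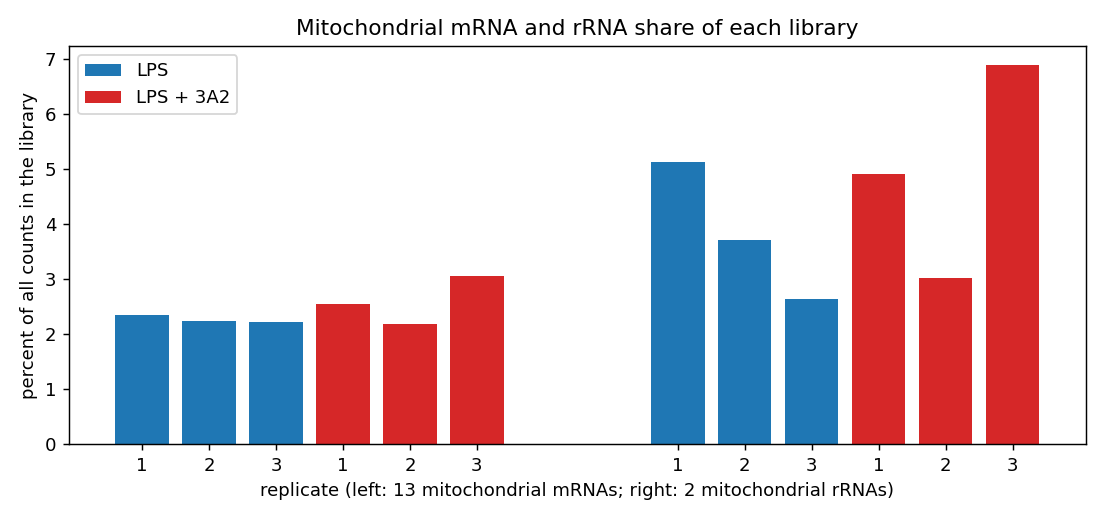
Bars give the percent of all counts in each library that fell on the 13 mitochondrial mRNAs (left) and the 2 mitochondrial rRNAs (right), by group and replicate. The mRNA share runs from 2.18% to 3.06% and the rRNA share from 2.64% to 6.89%, and within each group the rRNA bars differ more than the group means do.

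Comparing the treatments asks how mitochondrial transcripts of LPS-treated macrophages differed when 3A2 was added. No control antibody was analysed here, so neutralizing MMP14 and adding an antibody cannot be told apart. By edgeR's quasi-likelihood test 0 of 13 mRNAs and 0 of 2 rRNAs passed a Benjamini-Hochberg adjusted p of 0.05, and 0% of the 11498 genes tested did. The tRNAs lay below the filter on low counts. All 13 mRNAs had a fold above 1, from 1.08 to 1.57, with a median log2 fold change of 0.27, beside a median of 0.0017 over all genes tested. Of all genes, 5795 lay above 0 and 5703 below. These mRNAs share their libraries, and all but mt-Nd6 are copied from the same strand, so they are not 13 separate observations. At an unadjusted p under 0.05 there were 4 of 13 mRNAs (mt-Nd1, mt-Nd4l, mt-Nd5 and mt-Cytb), all higher, where 3.43% of all genes were higher and 3.09% lower. All 3 libraries with 3A2 lay above all 3 LPS libraries for 2 of 13, mt-Nd1 and mt-Nd6, where 5.84% of genes did so and 6.46% lay below.

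The size of that difference depended on LPS plus 3A2 replicate 3. That library was the highest of the 6 for 13 of 13 mRNAs, and replicate 1 with 3A2 was second for 12 of 13. Replicate 2 with 3A2 was among the lowest 2 libraries for 8 of 13. Without replicate 3 the median log2 fold change was 0.12, all 13 still lay above 0 (0.027 to 0.28), and 0 passed, with a smallest edgeR adjusted p of 0.319. Without replicate 2 the median was 0.40 and 5 mRNAs passed, where 0.171% of all genes passed as higher. By edgeR adjusted p they were mt-Atp6 (0.0053), mt-Nd1 (0.042) and mt-Nd4l (0.00986), together with mt-Nd5 (0.0376) and mt-Nd2 (0.0131). The direction held in either case, and the call rested on which library was left out.

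Complex I, the entry point for electrons from NADH, takes 7 subunits from this genome. mt-Nd1, which encodes part of its membrane arm next to the quinone site, measured 1152, 1079 and 1102 CPM of the scaled total in LPS replicates 1 to 3. With 3A2 it measured 1341, 1184 and 1735 CPM. Every 3A2 library was above every LPS library, and replicate 3 was the farthest. The fold was 1.28 (95% interval 1.03 to 1.58), at an edgeR adjusted p of 0.743. Without replicate 3 the log2 fold change was 0.18 in place of 0.35.

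mt-Nd6 is the only mRNA copied from the opposite strand to the other 12. It measured 171, 147 and 178 CPM with LPS and 191, 202 and 355 CPM with 3A2. The first pair of 3A2 libraries lay just above the LPS libraries, and replicate 3 lay well above both. The fold was 1.51 (95% interval 0.855 to 2.65; edgeR adjusted p = 0.799), and without replicate 3 its log2 fold change was 0.25 in place of 0.59. Per base of gene length, mt-Nd6 counts were 0.405, 0.355 and 0.440 of those of its neighbour mt-Nd5 in the LPS-only cultures and 0.405, 0.497 and 0.651 with 3A2.

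mt-Nd3, a small membrane subunit, was the scarcest mRNA and the one that varied most. It measured 93.7, 72.5 and 53.6 CPM with LPS and 108, 69.9 and 168.8 CPM with 3A2. The groups overlapped, since replicate 2 with 3A2 lay below 2 of 3 LPS libraries. The fold was 1.57 (95% interval 0.705 to 3.51; edgeR adjusted p = 0.82), and without replicate 3 the log2 fold change was 0.28 in place of 0.65. Ordered from the highest library to the lowest, mt-Nd3, mt-Nd2, mt-Nd5, mt-Co3 and mt-Rnr2 ran the same way, a likeness seen after their values were known.

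mt-Nd4l, the other small subunit of the membrane arm, had the smallest p of the 15 RNAs. It measured 184, 182 and 193 CPM with LPS and 224, 191 and 268 CPM with 3A2, with replicate 2 of 3A2 inside the LPS range. The fold was 1.22 (95% interval 1.06 to 1.41; edgeR adjusted p = 0.719), and without replicate 3 with 3A2 the log2 fold change was 0.16 in place of 0.29. Without a filter on low counts mt-Nd4l and mt-Nd1 passed by edgeR, at 0.0457 and 0.00992, where 0.0715% of genes passed as higher. Their log2 fold changes were then 0.29 and 0.36, as with the filter (0.29 and 0.35).

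The larger complex I subunits mt-Nd2, mt-Nd4 and mt-Nd5 form its proton-pumping modules. mt-Nd2 measured 694, 646 and 632 CPM with LPS and 779.6, 645 and 937 CPM with 3A2, a fold of 1.20 (95% interval 0.991 to 1.45). mt-Nd4 measured 1348, 1235 and 1259.7 CPM with LPS and 1478, 1255 and 1893 CPM with 3A2, a fold of 1.20 (0.939 to 1.54). mt-Nd5 measured 1483, 1456 and 1421 CPM with LPS and 1655, 1426 and 1913 CPM with 3A2, a fold of 1.15 (1.02 to 1.29). In all 3 the replicate 2 library of 3A2 fell among the LPS libraries and the other two 3A2 libraries lay above them, at edgeR adjusted p values of 0.757, 0.799 and 0.743. Without replicate 3 with 3A2 their log2 fold changes were 0.12, 0.093 and 0.084, in place of 0.26, 0.27 and 0.20.

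Cytochrome b, encoded by mt-Cytb, is the one subunit of complex III from this genome. It measured 1478, 1428 and 1450.4 CPM with LPS and 1597, 1468 and 1904 CPM with 3A2. Its LPS libraries were close together (SD 24.7 CPM, n = 3), and replicate 2 with 3A2 lay between them. The fold was 1.14 (95% interval 1.02 to 1.27; edgeR adjusted p = 0.726), and without replicate 3 with 3A2 the log2 fold change was 0.078 in place of 0.19.

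Complex IV, cytochrome c oxidase, has its 3 catalytic core subunits from this genome, and mt-Co1 was the most abundant mRNA. mt-Co1 measured 8109.7, 7699.9 and 7574 CPM with LPS and 8612, 7435 and 10251 CPM with 3A2, a fold of 1.12 (95% interval 0.974 to 1.30). mt-Co2, which takes electrons from cytochrome c, measured 3441, 3295 and 3217 CPM with LPS and 3588, 3171 and 4026 CPM with 3A2, a fold of 1.08 (0.978 to 1.20). For both, replicate 2 with 3A2 was the lowest of all 6 libraries and the other two 3A2 libraries were the highest. mt-Co3 measured 2431, 2277 and 2052 CPM with LPS and 2581, 2099 and 3279 CPM with 3A2, a fold of 1.18 (0.847 to 1.64), again with overlap. Their edgeR adjusted p values were 0.783, 0.799 and 0.84. Without replicate 3 with 3A2 the log2 fold changes of mt-Co1, mt-Co2 and mt-Co3 were 0.042, 0.027 and 0.054, in place of 0.17, 0.12 and 0.24.

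ATP synthase has 2 membrane subunits from this genome, read from one shared mRNA. mt-Atp6, part of the proton channel, measured 2435, 2388 and 2419 CPM with LPS and 2906, 2412 and 3569 CPM with 3A2. The LPS libraries spanned a narrow range (SD 24 CPM), replicate 2 with 3A2 sat inside it, and the fold was 1.23 (95% interval 0.995 to 1.51; edgeR adjusted p = 0.748). mt-Atp8, whose frame runs into that of mt-Atp6 over the capitals shown above, measured 561, 414 and 363 CPM with LPS and 608, 422 and 635 CPM with 3A2. Although both frames lie on one mRNA, mt-Atp8 spread more than mt-Atp6 within LPS (SD 103 CPM), and its fold was 1.24 (0.771 to 2.01; edgeR adjusted p = 0.842). Without replicate 3 with 3A2 the log2 fold change was 0.14 for mt-Atp6 in place of 0.30, and 0.21 for mt-Atp8 in place of 0.32. The ratio of mt-Atp8 to mt-Atp6 counts was 0.231, 0.173 and 0.15 in the LPS-only cultures and 0.209, 0.175 and 0.178 with 3A2.

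mt-Rnr1 and mt-Rnr2 are the RNAs of the small and the large subunit of the mitochondrial ribosome. mt-Rnr1 measured 10018, 6034 and 4191 CPM with LPS and 7825, 5509 and 15321 CPM with 3A2. mt-Rnr2 measured 41395, 30925 and 21892 CPM with LPS and 41595, 24807 and 54368 CPM with 3A2. High and low libraries occurred in both groups. The folds were 1.42 (95% interval 0.492 to 4.08) and 1.28 (0.592 to 2.77), at edgeR adjusted p values of 0.888 and 0.889, so both intervals hold a 2-fold higher level as well as a lower one. Without LPS plus 3A2 replicate 3 the log2 fold change of mt-Rnr1 was -0.017 in place of 0.50, and that of mt-Rnr2 0.08 in place of 0.36. Counts of mt-Rnr2 were 4.13, 5.13 and 5.22 times those of mt-Rnr1 in the LPS-only cultures and 5.32, 4.50 and 3.55 times with 3A2. The 2 rRNAs thus did not keep a fixed ratio. Both ordered the libraries alike, except that replicate 1 of each group changed places.

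**Figure D2:**
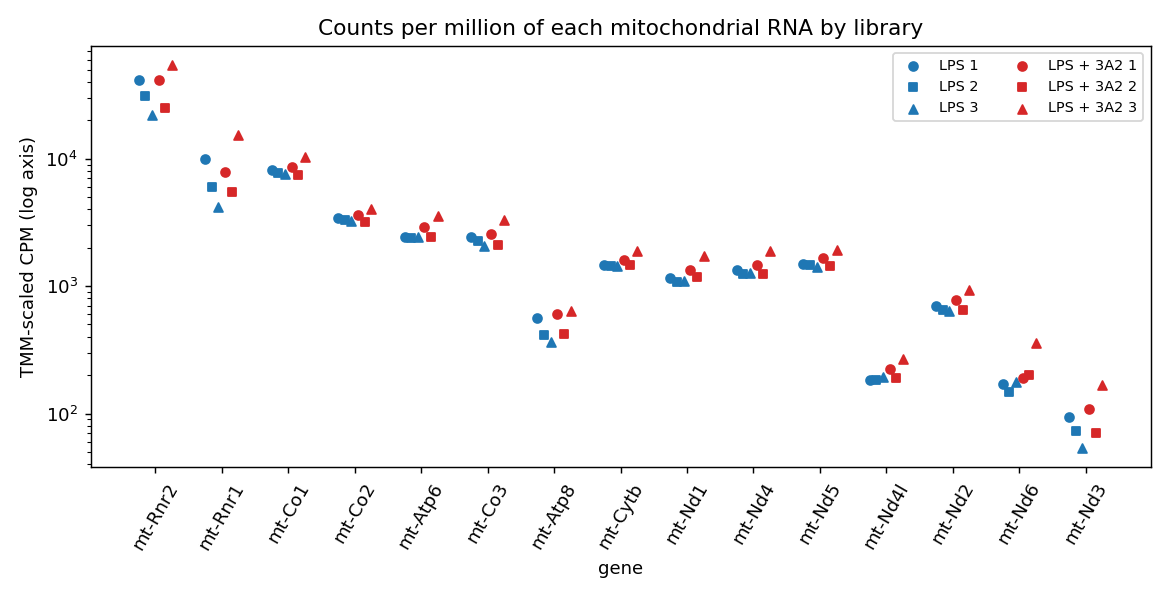
Each point is 1 library's scaled CPM (log axis) for a mitochondrial RNA, blue for LPS and red for LPS plus 3A2, with the marker giving the replicate. LPS plus 3A2 replicate 3 (red triangles) is the top point for all 13 mRNAs and both rRNAs, and replicate 2 (red squares) lies at or among the LPS points for most.

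The tRNAs were almost absent from the counts. All 22 together had 8, 4 and 4 counts in LPS replicates 1 to 3 and 2, 3 and 10 with 3A2, or 31 in all. In 17 of 22 rows every library had 0, and a count of 0 allows up to 3 counts, or 0.404 to 0.495 CPM in a library. TrnM, the methionine tRNA, held most of the rest, with 6, 2 and 3 counts with LPS and 1, 1 and 8 with 3A2. TrnV, the valine tRNA that lies between the 2 rRNA genes, had 1, 2 and 1 counts and then 0, 1 and 2. TrnH, TrnL1 and TrnW had 1 count each in 1 library. Both leading tRNAs are shown because they carry nearly all of these counts, with the anticodon in capitals.
TrnM: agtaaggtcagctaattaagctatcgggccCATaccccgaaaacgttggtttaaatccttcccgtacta
TrnV: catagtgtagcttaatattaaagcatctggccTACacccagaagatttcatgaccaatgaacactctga
The tRNA genes are 59 to 75 bases long, and reads were 150 bases, per the labels' protocols. A difference between groups was not detectable at this depth, and no tRNA passed the filter on low counts.

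Levels per gene length differed widely along the genome. On the scale of CPM of the unscaled total per kb, the mean over the 6 libraries was 22563 for mt-Rnr2 and 8495 for mt-Rnr1. Among mRNAs it fell from 5346 for mt-Co1 and 5041 for mt-Co2 through 3936 for mt-Atp6, 3120.2 for mt-Co3 and 2446 for mt-Atp8. mt-Cytb (1355), mt-Nd1 (1318), mt-Nd4 (1021), mt-Nd5 (853), mt-Nd4l (695) and mt-Nd2 (694) came next. mt-Nd6 (398) and mt-Nd3 (270.3) were lowest, and the highest mRNA was 19.8 times the lowest. The complex IV and ATP synthase mRNAs thus all lay above those of complexes I and III. In this order, 11 of 14 neighbouring pairs kept the same order in all 6 libraries. The exceptions were mt-Rnr1 over mt-Co1 (5 of 6 libraries), mt-Cytb over mt-Nd1 (4 of 6) and mt-Nd4l over mt-Nd2 (3 of 6), which did not differ beyond their spread. Genes shorter than a sequenced fragment, such as mt-Atp8, can lose counts on this scale, and that loss was not tested.

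**Figure D3:**
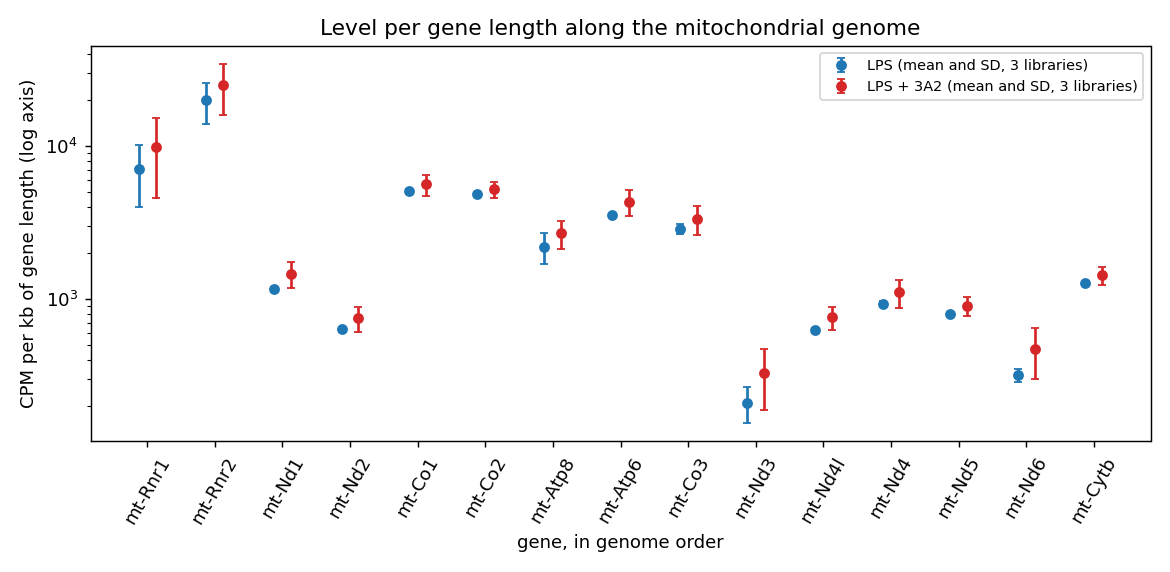
Points give the mean CPM per kb of gene length (log axis) of each mitochondrial RNA in LPS (blue) and LPS plus 3A2 (red), with SD over 3 libraries, in the order of the genes on the genome. In both groups the complex IV and ATP synthase mRNAs lie above those of complex I, and SDs are wider with 3A2.

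Shares within the 13 mRNAs set the differences in total aside. Of the summed mRNA counts, mt-Co1 took 34.4%, 34.5% and 34.6% in the LPS-only cultures and 33.6%, 33.8% and 33.1% with 3A2. mt-Co2 took 14.6%, 14.8% and 14.7% with LPS and 14.0%, 14.4% and 13.02% with 3A2. mt-Nd1 took 4.88%, 4.83% and 5.03% with LPS and 5.22%, 5.39% and 5.61% with 3A2. For these 3 genes the groups did not overlap, with mt-Co1 and mt-Co2 lower and mt-Nd1 higher with 3A2, and the shifts were small beside the differences between genes. Of all genes tested, relative to the same sum, 0.574% lay above without overlap and 13% below. They are descriptions of 3 among 13 shares that sum to 100%.

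The widest relative spreads were those of mt-Nd3 and mt-Nd6. mt-Nd3 took 0.398%, 0.325% and 0.245% of mRNA counts with LPS and 0.422%, 0.318% and 0.546% with 3A2. mt-Nd6 took 0.726%, 0.659% and 0.811% with LPS and 0.743%, 0.917% and 1.15% with 3A2. In a fit with the sum of the 13 mRNAs as the library total, their log2 fold changes were 0.41 and 0.36, each at an edgeR adjusted p of 0.614. In that fit 0 of 15 RNAs passed, as did 0% of all genes as higher, and the log2 fold changes of the other 11 mRNAs lay between -0.088 for mt-Co2 and 0.14 for mt-Nd1.

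**Figure D4:**
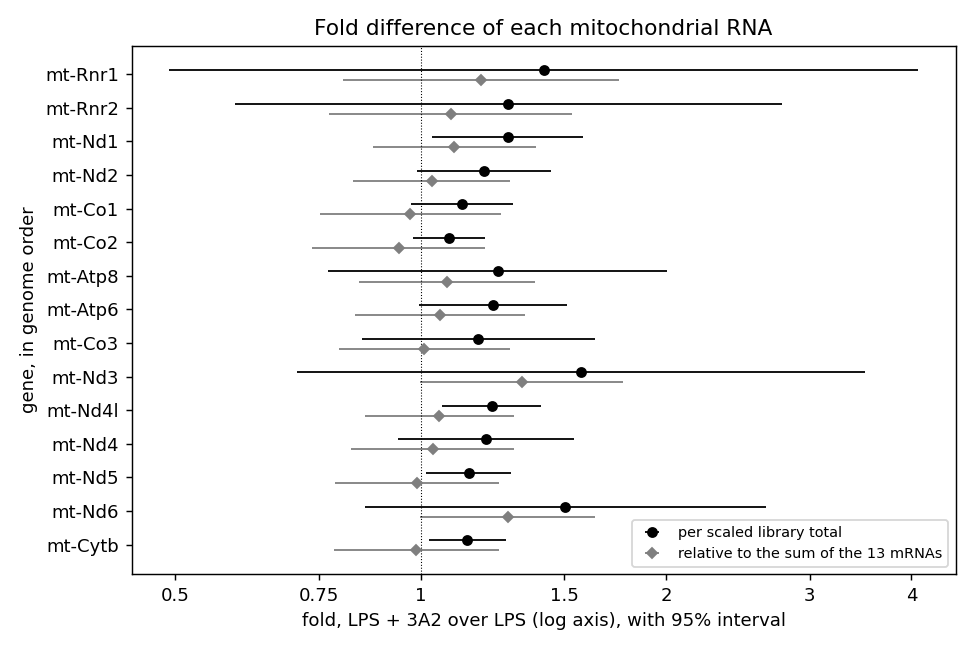
Points give the fold of LPS plus 3A2 over LPS (log axis) with its 95% interval, black for the scaled library total and grey for the sum of the 13 mRNAs as total, for each RNA in genome order. All black points lie above 1, from 1.08 to 1.57, while grey points for mRNAs centre near 1 except mt-Nd3 and mt-Nd6. The widest black intervals are those of mt-Rnr1, mt-Nd3 and mt-Rnr2.

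The nuclear genes that copy, process and translate the mitochondrial genome showed no such common shift. Of 204 rows in 8 lists, 202 were tested, 102 lay above 0 and 100 below, the median log2 fold change was 0.0029, and 0 passed by edgeR (4 higher and 2 lower at an unadjusted p under 0.05, where 3.43% and 3.09% of all genes were). Of the 6 tested transcription genes, 4 lay above 0. Tfam, which packages mitochondrial DNA and starts its transcription, had a mean of 31.5 ± 1.86 CPM in LPS and of 33.1 ± 5.51 CPM in LPS plus 3A2 (SD, n = 3), and Mterf1b stood at 1.32-fold (95% interval 0.874 to 2). In replication and nucleotide supply, 7 of 17 lay above 0, with the polymerase gene Polg at 0.867-fold (0.75 to 1) and the ligase gene Lig3 at 1.02-fold. In RNA processing and decay, 9 of 22 lay above 0, with Fastk at 0.861-fold and the ribonuclease gene Rexo2 at 0.977-fold.

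Genes that build and serve the mitochondrial ribosome were also balanced. Of 83 ribosomal proteins, 43 lay above 0 and 40 below, with Ptcd3 at 1.17-fold (95% interval 1.03 to 1.33) and Mrpl17 at 0.971-fold. Of 32 genes of rRNA and tRNA modification and ribosome assembly, 15 lay above 0. Mrm2, a methyltransferase of the large-subunit rRNA, measured 2.49, 2.14 and 4.15 CPM with LPS and 6.17, 5.39 and 6.34 CPM with 3A2. Its fold of 2.05 (1.38 to 3.06) rests on low counts and did not pass (edgeR adjusted p = 0.719). Dhx30 stood at 0.991-fold. Among translation factors 9 of 13 lay above 0, with Tsfm at 1.18-fold and Tufm, the elongation factor, at 0.9746-fold. Among regulators of mitochondrial biogenesis, 5 of 7 lay above 0, with the coactivator gene Ppargc1b at 0.799-fold (0.671 to 0.952) and Yy1 at 1.06-fold.

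Of the 22 genes that charge mitochondrial tRNAs, 10 lay above 0, and the most abundant of them varied widely. Lars2, the leucyl-tRNA synthetase gene, measured 263, 609 and 817 CPM with LPS and 1427, 2427 and 239 CPM with 3A2. Its highest library was 10.1 times its lowest, within the 3A2 group, so the fold of 2.42 had a 95% interval of 0.378 to 15.5 (edgeR adjusted p = 0.84). The lowest library was LPS plus 3A2 replicate 3, the highest in mitochondrial rRNA. Within each group the order of Lars2 ran opposite to that of the rRNA share. That share was 5.13%, 3.72% and 2.64% with LPS and 4.90%, 3.01% and 6.89% with 3A2. Across both groups the order was not fully opposite, since LPS replicate 3 was lowest in rRNA but not highest in Lars2. This pattern was seen after the values were known, and a link was not tested. Qrsl1, with the smallest p of the list, stood at 0.766-fold (0.586 to 1).

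Partner subunits of the respiratory chain from the nucleus lay close to 0. Of 78 tested, 47 were above 0 and 31 below, at a median log2 fold change of 0.038, 0 passed by edgeR, and 5 were higher and 0 lower at an unadjusted p under 0.05, where 3.43% and 3.09% of all genes were. Their summed level was 6786, 6857 and 6943 CPM of the unscaled total with LPS and 6867, 7109 and 6817 CPM with 3A2, so the library highest in mitochondrial mRNA was not high in these. By complex, 20 of 37 complex I, 4 of 4 complex II, 3 of 9 complex III, 8 of 11 complex IV and 12 of 17 ATP synthase subunits lay above 0. The complex IV gene Cox5a measured 152, 146 and 148 CPM with LPS and 168, 174 and 180.3 CPM with 3A2, and its fold was 1.17 (95% interval 1.06 to 1.29; edgeR adjusted p = 0.719). Atp5md, a small ATP synthase subunit, stood at 1.23-fold (1.09 to 1.39; adjusted p = 0.719). Ndufb6 (1.17-fold), Sdhc (1.08-fold), Sdhd (1.05-fold), Uqcrq (0.908-fold), Uqcrc1 (0.951-fold), Cox4i1 (0.946-fold) and Atp5b (1.02-fold) did not pass either.

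Other abundant RNAs were also shifted in the library that stood apart, some up with mitochondrial RNA and others down. In LPS plus 3A2 replicate 3, as log2 from the mean of the 6 libraries, mitochondrial mRNAs were at 0.33 and mitochondrial rRNAs at 0.65. In that library the small cytoplasmic RNA Rny1 was at 0.44 and the nuclear RNA Malat1 at 0.17. Cytosolic ribosomal protein mRNAs were at -0.16 there, histone mRNAs at -0.21, the 7SK RNA Rn7sk at -0.19, Rmrp at -0.18 and the RNase P RNA Rpph1 at -0.35. In replicate 2 with 3A2, mitochondrial mRNAs were at -0.16 and rRNAs at -0.54, Rn7sk at 0.13 and Rpph1 at 0.18. Over the groups, 71 of 83 ribosomal protein mRNAs and 47 of 64 histone mRNAs had a log2 fold change below 0. By gene, Rpl30 (1.18-fold) had the smallest p of the ribosomal protein list and Rpl4 (0.952-fold) the highest level, and in the histone list these were H3c13 (0.854-fold) and H1f4 (0.919-fold). The part of this make-up in the mitochondrial values was not tested.

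**Figure D5:**
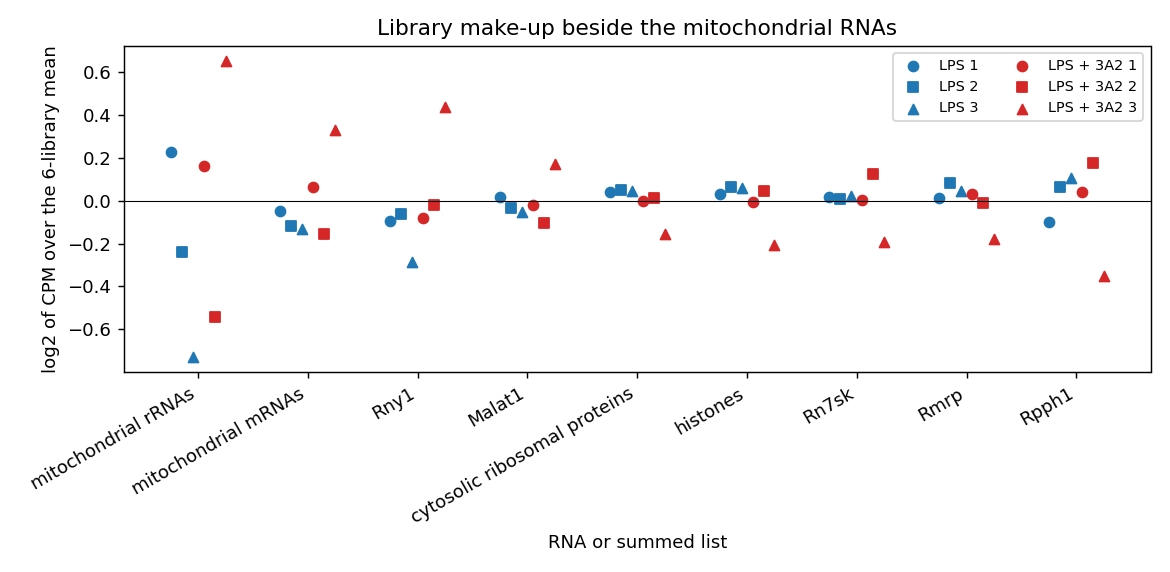
Each point is 1 library's CPM of a summed list or single RNA as log2 from the mean of 6 libraries, blue for LPS and red for LPS plus 3A2, with the marker giving the replicate. LPS plus 3A2 replicate 3 (red triangles) is the highest for mitochondrial rRNAs, mitochondrial mRNAs, Rny1 and Malat1 and the lowest for the other 5 items shown, which were chosen after their values were seen.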

How the data were processed

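Per the labels' protocols, total RNA was rRNA-depleted and sequenced as strand-specific paired-end 150-base libraries. The authors deposited raw read counts per gene symbol, 1 column per library, with no pooling. HISAT2 and edgeR are named without version or role, per the submitters' processing notes, which also give GRCh38, a human build, although 39282 of 40773 symbols match a mouse RefSeq table (GRCm38.p6). The sources used here name no counting program, annotation or strand setting, so no coordinates are printed. Cells typed beside 3 genes were not used, and 0 rows lacked a name.

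Groups came from the labels. Counts were filtered with filterByExpr (minimum count 10), which left 11498 genes, and TMM factors scaled the libraries. The test was the robust quasi-likelihood F test of edgeR 4.0.16 under R 4.3.3, no covariate, two-sided, Benjamini-Hochberg adjusted over all genes at 0.05. P-values measure the spread between these cultures. The biological coefficient of variation was 0.0768. Standard errors and 95% intervals came from the F statistics. Class sums, ratios and shares were described without a test. Gene lengths, gene order and sequences came from GENCODE M21, and nuclear copies were aligned with Biopython 1.88.

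Members and lists were chosen with earlier results of these data known. Named were all mRNAs and rRNAs, tRNAs with at least 100 counts, and of each nuclear list the tested genes with the smallest p and the highest level. One nuclear gene that this rule names is not reported here. No tRNA reached 100 counts, and those with a count are named because there are 5, chosen after their values were seen, as were the single RNAs of the library make-up. The test was checked on simulated counts. Alternatives for the library total were size factors of DESeq2, a total that omits mitochondrial genes and the top 20 genes by abundance, and the sum of the 13 mRNAs. Others were no filter on low counts, a filter of 1 CPM in every library, tests by DESeq2 1.42.0 and by voom in limma 3.58.1, the replicate number as a block, a threshold of 0.1, and leaving out each library.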

Additional observations from a re-analysis of the deposited data

How the results depend on the processing

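Without a filter on low counts the 5 tRNAs with a count were tested and 0 passed by edgeR. No tRNA was tested in any other setting. The counts of called rRNAs, nuclear genes of mitochondrial gene expression and nuclear respiratory chain subunits were 0 under each alternative run. The count of called mitochondrial mRNAs was 0 except without a filter on low counts (2 of 13) and with 1 library left out, where it ran from 0 to 5, the 5 without LPS plus 3A2 replicate 2. With the replicate number as a block it was 0, and the smallest edgeR adjusted p of a mitochondrial RNA was 0.607. Over all genes the block left 612 genes at an unadjusted p under 0.05, against 749 without it, and 1 past the threshold. Correlations of deviations from the group means were -0.0065, 0.032 and -0.16 for numbers 1 to 3. Between unlike numbers they ran from -0.16 to 0.16, so libraries of the same number were no more alike. Whether the cultures were paired cannot be told from these values.

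With the sum of the 13 mRNAs as library total, which subtracts their common shift by construction, log2 fold changes turned to -0.0135 for mt-Nd5, -0.0174 for mt-Cytb, -0.0415 for mt-Co1 and -0.0882 for mt-Co2. They also turned to -0.16 for Atp5b, -0.155 for Lig3, -0.0773 for Sdhc, -0.13 for Sdhd, -0.144 for Tfam and -0.108 for Yy1. With 1 library left out, mt-Rnr1 ran from -0.0172, without LPS plus 3A2 replicate 3, to 0.902, beside 0.50 with all libraries. Other values that changed sign were smaller and ran from -0.0012 to 0.0384 for Atp5b, -0.0431 to 0.0093 for Dhx30, -0.217 to 0.0127 for H1f4, -0.074 to 0.16 for Tfam and -0.0815 to 0.0211 for Tufm. The log2 ratio of tRNA shares ran from -0.992 to 0.482, on 31 counts in all. The cause was not tested. The tRNAs had too few counts to pass the filter on low counts.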
